A study of Homo sapiens with 8 samples.

Results

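The simple keratin genes *KRT7*, *KRT8*, *KRT18* and *KRT19*, the type II keratin gene *KRT80* and the hair keratin genes *KRT81* and *KRT86* were followed through RNA-seq libraries of breast epithelial cells with and without extra *MALINC1*, a long non-coding RNA. These 7 genes, of 13842 in the expression table, were chosen by their symbols, with earlier results of the same libraries known, so every comparison of their levels is given as a description and without a p-value. The libraries came from MCF10A, a line of normal breast epithelium, and from DCIS.COM, a line of ductal carcinoma in situ. Each line had been stably transduced with the pLOC-empty vector or with pLOC-*MALINC1* and selected with blasticidin, which gave 4 groups of 2 libraries and 8 libraries in all. MCF10A had been kept with horse serum, EGF, hydrocortisone, insulin and cholera toxin, whereas DCIS.COM had been kept with horse serum as the sole supplement named beside the base medium, so that line and medium cannot be told apart. Each kind of epithelium is represented by 1 line, and nothing in the labels says that the 2 libraries of a group came from separate cultures.

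Keratins are the intermediate filament proteins of epithelial cells. An acidic type I keratin pairs with a basic type II keratin, and the pairs assemble into filaments that link to desmosomes and hemidesmosomes and give the cell mechanical strength. In the mammary gland, luminal cells carry mainly the simple keratins *KRT7*, *KRT8*, *KRT18* and *KRT19*, and basal cells carry *KRT5*, *KRT14* and *KRT17*. Hair keratins belong to the cortex and cuticle of the hair shaft, although *KRT81* and *KRT86* are also transcribed in several breast epithelial lines.

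Of the 7 genes, 6 lie in the type II cluster on chromosome 12 of GRCh37 (hg19), and the type I gene *KRT19* lies on chromosome 17 (39679869 to 39684560, minus strand). *KRT80* spans 52562780 to 52585798 on the minus strand and *KRT7* 52626304 to 52645970 on the plus strand. *KRT81* spans 52679697 to 52685318 on the minus strand and lies within the annotated span of *KRT86*, which runs from 52643084 to 52702947 on the plus strand. At the other end of the cluster, the annotated span of *KRT8* (53290971 to 53343738, minus strand) overlaps that of the type I gene *KRT18* (53342655 to 53346690, plus strand). The *KRT8* transcript used for its length begins at 53298860 and does not reach *KRT18*.

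The coding sequences of *KRT81* and *KRT86* are shown first, because they decide how far the reads of one can be told from the reads of the other. From coding position 61 to 665 the reference sequences are identical over 605 bases, and the first 120 bases of that run, here all in lower case, read as follows.
Shared by KRT81 and KRT86: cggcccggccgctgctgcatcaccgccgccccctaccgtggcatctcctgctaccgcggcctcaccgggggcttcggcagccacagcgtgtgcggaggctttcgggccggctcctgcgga
In all, 608 of the 1854 windows of 76 bases in the *KRT81* transcript (32.8%) also occur in the *KRT86* transcript, where they make up 27.99% of the windows. How reads that match both genes were assigned is not given in the sources used here, so the split of reads between *KRT81* and *KRT86* is uncertain. *KRT19* and *KRT80* shared no such window with another gene, *KRT7* shared 9.74% of its windows with *KRT7-AS* on the opposite strand, and *KRT8* shared 18.2%, mostly with its pseudogenes. *KRT18* shared 375 exonic bases (26.5% of its transcript) with the oppositely oriented *KRT8*, counted over all annotated *KRT8* transcripts. The strand setting of the counting is not given either, and without it the reads of such overlapping pairs cannot be told apart.

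The 250 bases before the annotated start are shown for *KRT86* and for *KRT85*, both hair keratin genes of the cluster that were called lower in DCIS.COM. Each is written 5′ to 3′ on the strand of its gene, from the GRCh37 reference, and capitals mark the searched letters given below.
KRT86 inner start, chr12:52695399-52695648, plus strand: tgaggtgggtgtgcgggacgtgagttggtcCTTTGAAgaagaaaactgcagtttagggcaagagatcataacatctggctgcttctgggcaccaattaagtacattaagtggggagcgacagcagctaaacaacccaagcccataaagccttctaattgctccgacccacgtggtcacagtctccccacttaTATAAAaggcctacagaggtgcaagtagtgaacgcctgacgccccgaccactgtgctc
KRT85, chr12:52761266-52761515, minus strand: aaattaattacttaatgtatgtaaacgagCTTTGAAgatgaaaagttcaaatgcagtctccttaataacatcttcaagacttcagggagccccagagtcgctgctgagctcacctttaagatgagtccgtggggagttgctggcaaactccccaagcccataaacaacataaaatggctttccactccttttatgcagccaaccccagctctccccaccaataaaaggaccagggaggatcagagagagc
The inner start is that of an annotated *KRT86* transcript beginning at 52695649, and which *KRT86* start the cells used was not tested. The letters were searched on both strands, with CTTTGAA for the LEF1/TCF factors, TATAAA for the core promoter box of that name, TGANTCA for the AP-1 factors, GCCNNNGGC for the AP-2 factors and GGGCGG for Sp1. In the sequences printed here, no match overlapped that of another motif. Both sequences hold CTTTGAA, 220 bases before the inner start of *KRT86* and 221 before *KRT85*. The 250 bases before the first exon of the *KRT86* transcript used for its length, which begins at 52668429, hold none of the searched letters. Among 13165 promoters of genes in the table, the letters CTTTGAA occur in 2.10%, TATAAA in 6.05%, TGANTCA in 3.77%, GCCNNNGGC in 28.8% and GGGCGG in 69.5%. The promoters of *KRT7*, *KRT8*, *KRT18*, *KRT19* and *KRT80*, like that one of *KRT86*, hold no CTTTGAA, and GGGCGG occurs in *KRT7*, *KRT18*, *KRT19* and *KRT80*. The search for CTTTGAA was made after these promoters had been seen, and a match of letters is a description and not a site.

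Levels are CPM, reads scaled to the size of the library, and the deposited log2 CPM hold a small prior count that puts a gene without reads at 0.0713 CPM in every library. Libraries held 20604377 to 37550457 reads on genes, with a median of 29210326. *MALINC1* itself checked the labels. It had 1.07 and 1.58 CPM in MCF10A pLOC-empty against 13.3 and 11.8 CPM in pLOC-*MALINC1*, and 1.42 and 1.22 CPM in DCIS.COM pLOC-empty against 24.5 and 19.2 CPM in pLOC-*MALINC1*. All 7 epithelial markers searched for were in the table, with a summed level of 3915 to 15232 CPM per library. Of the markers of other cell types, 1 of 7 for fibroblasts (*COL1A1*, 1.58 to 15.9 CPM), 2 of 7 for leukocytes (4.25 to 14.4 CPM in sum), 1 of 5 for endothelium (*PECAM1*, 0.159 to 7.28 CPM) and 0 of 4 for adipocytes were in it. With pLOC-*MALINC1*, 2 epithelial markers were called higher in MCF10A (*KRT14* and *TP63*), *COL1A1* was called lower in MCF10A, *PECAM1* was called lower in DCIS.COM, and 0 leukocyte markers were called in either line. The part of *COL1A1* and *PECAM1* in the values below was not tested. The 2 libraries of a group differed by more than counting noise in each group, with a median squared difference of 1.51 to 2.96 times that noise, so none was counted as a duplicate.

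A gene was called when its adjusted p was below 0.01 and its change was over 2-fold. In MCF10A, 0 of the 7 keratins were called higher with pLOC-*MALINC1* and 1 lower, beside 2.99% and 2.51% of all genes. In DCIS.COM, 0 were called higher and 2 lower, beside 1.44% and 3.08% of all genes. For the response of DCIS.COM minus that of MCF10A, 2 were called as more positive and 2 as more negative, beside 3.98% and 5.22%. Both libraries of one group lay above both of the other for 4 of the 7 keratins in MCF10A and for 6 in DCIS.COM, beside 76.5% and 73.0% of all genes. The median log2 fold change of the 7 keratins was -0.25 in MCF10A, where that of all genes was 0.00, and -0.04 in DCIS.COM, where that of all genes was 0.01. The median SE over all genes was 0.073 on this scale. The comparisons share libraries, and each is therefore given by its own values.

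**Figure D1:**
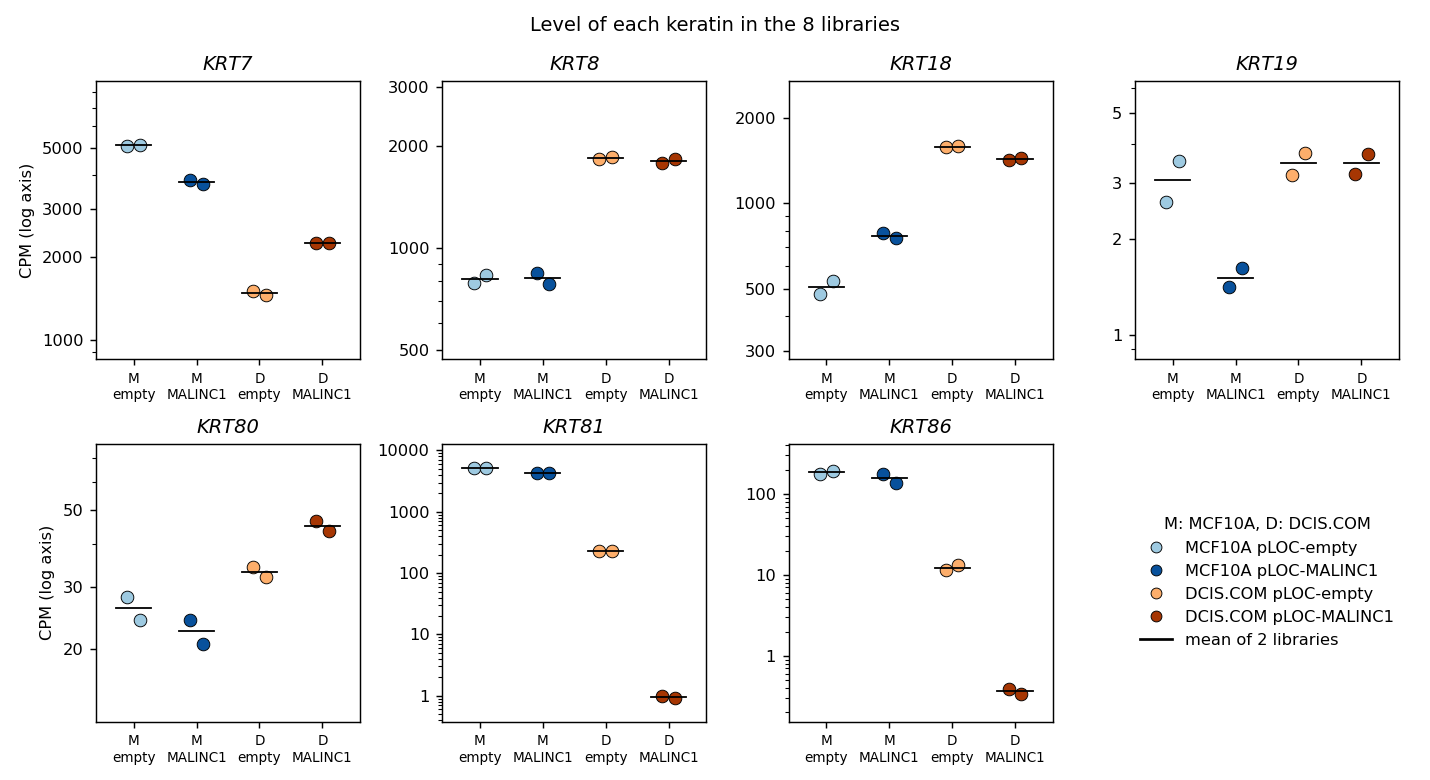
CPM of each of the 7 keratin genes in the 8 libraries, on a log axis in each panel, with points for libraries and lines for the mean of 2. *KRT81* and *KRT86* lie under 1 CPM in DCIS.COM pLOC-*MALINC1*, whereas *KRT8* lies between 786 and 845 CPM in every MCF10A library and between 1781 and 1865 CPM in every DCIS.COM library.

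*KRT7*, a type II keratin of ductal and glandular epithelia, moved in opposite directions in the lines. In MCF10A it had 5094 and 5153 CPM with pLOC-empty and 3816 and 3696 CPM with pLOC-*MALINC1*. In DCIS.COM it had 1504 and 1452 CPM with pLOC-empty and 2257 and 2246 CPM with pLOC-*MALINC1*. Both libraries with *MALINC1* lay below both controls in MCF10A and above both in DCIS.COM. On the log2 scale the change was -0.45 (SE 0.040) in MCF10A, or -0.18 under quantile normalization, and 0.61 (SE 0.040) in DCIS.COM, neither of them over 2-fold. Their difference of 1.06 (SE 0.057) was called and held between 1.03 and 1.13 under the alternatives tried. As in any bulk sample, fewer cells carrying a keratin and less of its RNA per cell cannot be told apart.

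*KRT8*, the type II keratin of simple epithelia and the partner of *KRT18*, changed by less than 1 SE in both lines. It had 792 and 834 CPM in MCF10A pLOC-empty and 845 and 786 CPM in MCF10A pLOC-*MALINC1*, and these groups overlapped. DCIS.COM had 1839 and 1865 CPM with pLOC-empty and 1781 and 1828 CPM with pLOC-*MALINC1*, which did not overlap. The changes were 0.00 (SE 0.042) in MCF10A and -0.04 (SE 0.042) in DCIS.COM on the log2 scale, and the sign of both turned under quantile normalization.

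*KRT18*, the type I partner of *KRT8*, was higher with *MALINC1* in MCF10A. It had 479 and 531 CPM with pLOC-empty and 783 and 753 CPM with pLOC-*MALINC1* there, and the groups did not overlap. DCIS.COM libraries had 1579 and 1596 CPM with pLOC-empty and 1419 and 1454 CPM with pLOC-*MALINC1*. The log2 fold change was 0.61 (SE 0.045) in MCF10A and -0.14 (SE 0.045) in DCIS.COM, where it became 0.02 under quantile normalization, and neither change passed 2-fold. With *KRT18* higher and *KRT8* level, the ratio of *KRT8* to *KRT18*, each as CPM per kb of transcript, went from 1.31 and 1.24 in MCF10A pLOC-empty to 0.855 and 0.827 in MCF10A pLOC-*MALINC1*. In DCIS.COM it was 0.922 and 0.926 with pLOC-empty and 0.994 and 0.996 with pLOC-*MALINC1*. The ratio thus lay within 0.827 to 1.31 in every library.

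*KRT19*, a small type I keratin of luminal cells, was close to the lower end of what was measured. It had 2.62 and 3.52 CPM in MCF10A pLOC-empty, from 74 and 78 reads, and 1.41 and 1.62 CPM in MCF10A pLOC-*MALINC1*, from 48 and 41 reads. The log2 fold change there was -1.01 (SE 0.19), which put it just inside the 2-fold line, and the call was lost under 4 of the alternatives and without either of 2 libraries, as given in the closing section. In DCIS.COM it had 3.20 and 3.75 CPM with pLOC-empty and 3.22 and 3.71 CPM with pLOC-*MALINC1*, and these groups overlapped, with a log2 fold change of 0.00 (SE 0.19). The difference between the lines was 1.01 (SE 0.26).

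*KRT80*, a type II keratin that accumulates near desmosomes as epithelial cells differentiate, had 28.1 and 24.2 CPM in MCF10A pLOC-empty and 24.2 and 20.6 CPM in MCF10A pLOC-*MALINC1*. In DCIS.COM it had 34.2 and 32.2 CPM with pLOC-empty and 46.3 and 43.6 CPM with pLOC-*MALINC1*. The groups overlapped in MCF10A and did not in DCIS.COM. Its log2 fold change was -0.22 (SE 0.085) in MCF10A and 0.44 (SE 0.085) in DCIS.COM, with a difference of 0.66 (SE 0.12), and none of these was called.

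*KRT81*, a type II keratin of the hair cortex, was among the more abundant keratins in MCF10A and nearly lost in DCIS.COM with *MALINC1*. In MCF10A it had 5227 and 5148 CPM with pLOC-empty and 4308 and 4373 CPM with pLOC-*MALINC1*. In DCIS.COM it had 226 CPM in both pLOC-empty libraries and 0.974 and 0.928 CPM in the pLOC-*MALINC1* libraries. These last values rest on 31 and 29 reads, against 4842 and 4742 reads in the controls. The ratio of the pooled reads, scaled for library size, was 257 (exact 95% interval 199 to 337). That interval covers counting error alone and not the spread between libraries. The log2 fold change was -0.26 (SE 0.033) in MCF10A and -7.89 (SE 0.033) in DCIS.COM, a level 238-fold lower on the scale that holds the prior count. The difference between the lines was -7.64 (SE 0.046). These SEs come from a spread shared by the 4 groups. In DCIS.COM and for the difference they are smaller than the counting error of 31 and 29 reads, which the interval above shows. In DCIS.COM the value ranged from -8.30 under quantile normalization to -6.86 with a pseudocount of 1 CPM. In MCF10A it was -0.05 under quantile normalization.

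*KRT86*, the hair keratin whose coding sequence is closest to that of *KRT81*, followed the same pattern at a lower level. It had 179 and 190 CPM in MCF10A pLOC-empty and 179 and 135 CPM in MCF10A pLOC-*MALINC1*, and these groups overlapped. In DCIS.COM it had 11.5 and 13.2 CPM with pLOC-empty and 0.392 and 0.337 CPM, from 11 and 9 reads, with pLOC-*MALINC1*. The log2 fold change was -0.25 (SE 0.12) in MCF10A and -5.08 (SE 0.12) in DCIS.COM, a level 33.8-fold lower on the same scale. The difference between the lines was -4.83 (SE 0.17). In DCIS.COM the value ranged from -5.40 under quantile normalization to -3.29 with a pseudocount of 1 CPM. When the CPM of *KRT81*, *KRT83* and *KRT86* were summed as 1 feature, which removes the split of shared reads among them, the log2 fold change in DCIS.COM was -7.40 (SE 0.039). The SEs of *KRT86* and of this sum in DCIS.COM are also smaller than the counting error of so few reads.

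The share of *KRT86* in the reads of *KRT81* and *KRT86* together was 3.305% and 3.56% in MCF10A pLOC-empty, 3.99% and 2.99% in MCF10A pLOC-*MALINC1* and 4.82% and 5.46% in DCIS.COM pLOC-empty. In DCIS.COM pLOC-*MALINC1* it was 26.2% (exact 95% binomial interval 13.9 to 42.0, 11 of 42 reads) and 23.7% (11.4 to 40.2, 9 of 38 reads). The intervals cover counting error alone. Both shares with *MALINC1* in DCIS.COM lay above all 6 others, and the measured fall of *KRT86* was smaller than that of *KRT81* there. The *KRT86* transcript shares 221 exonic bases with a long non-coding RNA gene on the opposite strand. It shares 126 with a pseudogene on its own strand. The part of reads from such genes in these shares was not tested.

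**Figure D2:**
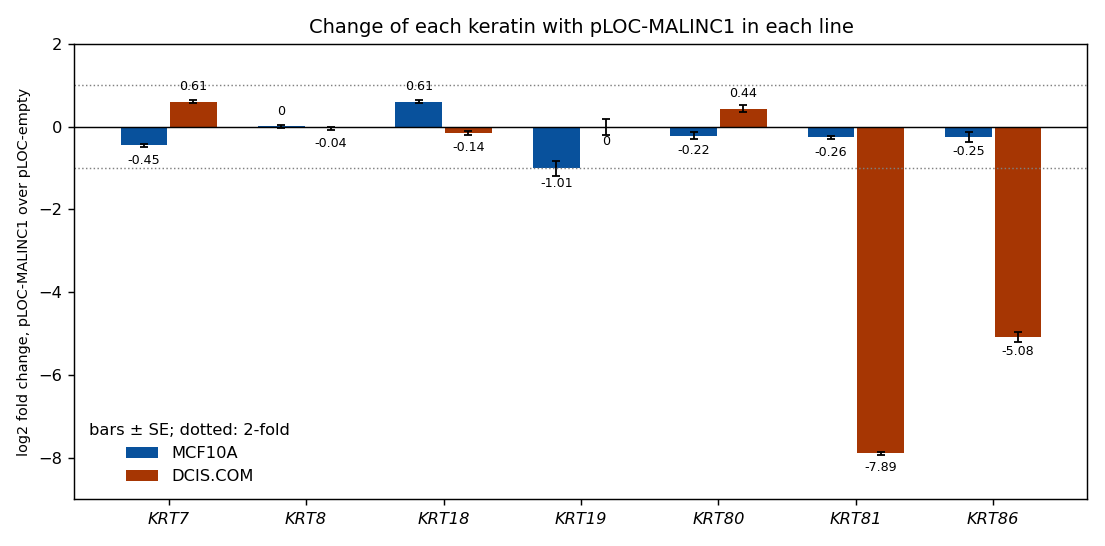
Log2 fold change of each keratin with pLOC-*MALINC1* over pLOC-empty in MCF10A and DCIS.COM, with bars for the estimate, error bars for its SE and dotted lines at 2-fold. For *KRT81* and *KRT86* in DCIS.COM the SE is smaller than the counting error of their reads. The bars of *KRT81* (-7.89) and *KRT86* (-5.08) in DCIS.COM pass the dotted lines, those of *KRT19* in MCF10A (-1.01) touch them, and the bars of *KRT7* and *KRT80* point in opposite directions in the lines.

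The lines themselves differed in these keratins. Comparing DCIS.COM with MCF10A, both with pLOC-empty, 2 of the 7 were called higher and 3 lower, beside 15.6% and 13.0% of all genes. With pLOC-*MALINC1* in both, 3 were called higher and 2 lower, beside 14.4% and 12.2%. The libraries of the lines did not overlap for 6 of the 7 keratins with pLOC-empty and for 7 with pLOC-*MALINC1*, beside 90.1% and 90.0% of all genes. Scaling without *RN7SL1* and *RN7SL2*, small RNAs that took 8.22% to 15.7% of reads, moved the median of all genes between the lines by 0.11 with pLOC-empty and 0.18 with pLOC-*MALINC1* on the log2 scale. The split of calls over all genes then went from 2153 higher and 1806 lower to 2433 and 1605 with pLOC-empty, and from 1999 and 1687 to 2496 and 1413 with pLOC-*MALINC1*.

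With pLOC-empty, *KRT8* and *KRT18* were higher in DCIS.COM, with log2 fold changes of 1.19 (SE 0.042) and 1.66 (SE 0.045), and *KRT7* was lower, with -1.79 (SE 0.040). *KRT81* was lower by far more, with -4.52 (SE 0.033), and *KRT86* with -3.91 (SE 0.12). *KRT19* (0.19, SE 0.19) and *KRT80* (0.35, SE 0.085) were not called. With pLOC-*MALINC1*, *KRT8* stayed higher in DCIS.COM, with 1.15 (SE 0.042), while *KRT18* (0.90, SE 0.045) and *KRT7* (-0.74, SE 0.040) came in under 2-fold. *KRT18* passed 2-fold and was called there under quantile normalization (1.16) and with scaling without *RN7SL1* and *RN7SL2* (1.08). *KRT19* (1.19, SE 0.19) and *KRT80* (1.01, SE 0.085) were called higher there, *KRT80* at the 2-fold line. A pseudocount of 0.5 or 1 CPM removed both calls, which left *KRT8*, *KRT81* and *KRT86*. The *KRT81* difference was -12.16 (SE 0.033) and the *KRT86* difference -8.74 (SE 0.12). Both SEs are smaller than the counting error of the few reads in DCIS.COM pLOC-*MALINC1*.

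Levels per kb of transcript correct for length but not for shared reads, so the order of genes below is approximate. Of their windows, 36.3% for *KRT81*, 36.2% for *KRT86*, 27.5% for *KRT18*, 18.2% for *KRT8* and 9.74% for *KRT7* occur in other genes. *KRT19* and *KRT80* shared none. The *KRT86* length, 2247 bases, is that of the transcript beginning at 52668429, whose use by the cells was not tested. The SD covers neither limit. On this scale *KRT7* led in MCF10A pLOC-empty with 3153 ± 25.7 CPM per kb (SD, n = 2). *KRT81* followed with 2689 ± 29.3, then *KRT8* with 456 ± 16.8, *KRT18* with 357 ± 26.0, *KRT86* with 82.1 ± 3.64, *KRT80* with 6.73 ± 0.713 and *KRT19* with 2.16 ± 0.459. No neighbours in that order overlapped within their SD. With pLOC-*MALINC1* in MCF10A, *KRT7* (2312 ± 52.2) and *KRT81* (2250 ± 23.7) did overlap within their SD, and *KRT18* (544 ± 15.3) came above *KRT8* (457 ± 23.4). In DCIS.COM pLOC-empty the order began with *KRT18* (1123 ± 8.21), *KRT8* (1038 ± 10.5) and *KRT7* (909 ± 22.9), and *KRT81* came next with 117 ± 0.201. *KRT80* (8.55 ± 0.376), *KRT86* (5.45 ± 0.520) and *KRT19* (2.45 ± 0.280) ended it. With *MALINC1* in DCIS.COM, *KRT7* (1386 ± 4.56) led, *KRT18* (1017 ± 17.3) and *KRT8* (1012 ± 18.9) overlapped within their SD, and *KRT81* (0.456 ± 0.0168) and *KRT86* (0.130 ± 0.0171) fell to the end, below *KRT80* (11.6 ± 0.501) and *KRT19* (2.44 ± 0.249).

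**Figure D3:**
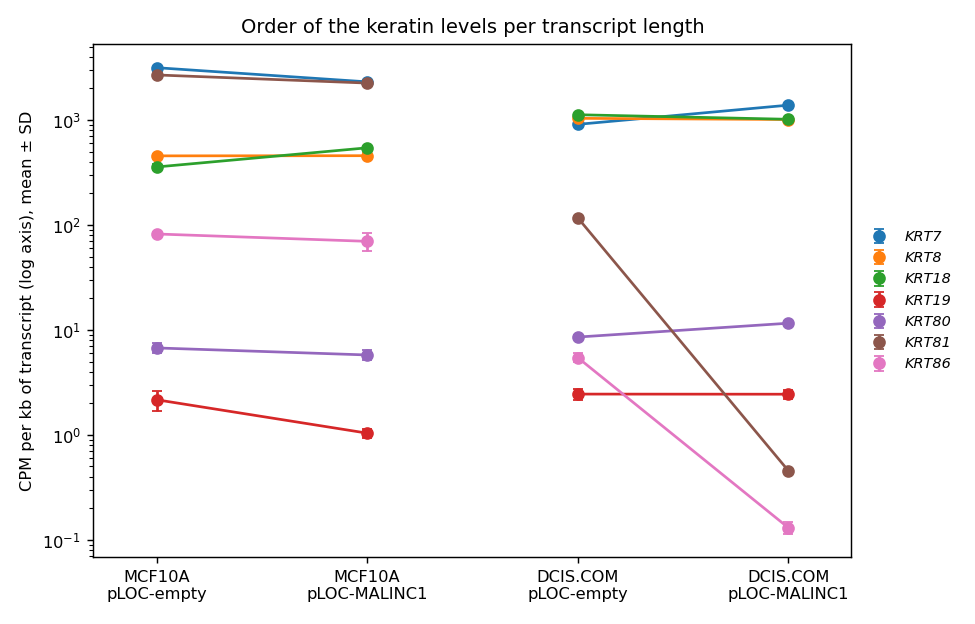
Mean CPM per kb of transcript of each keratin in the 4 groups, on a log axis, with error bars for the SD of 2 libraries and lines joining the groups of one cell line. *KRT81* drops from 117 to 0.456 CPM per kb between the DCIS.COM groups, passing below *KRT80* and *KRT19*, while *KRT7*, *KRT8* and *KRT18* stay between 909 and 1386 there.

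The 24 keratin genes of the lists in the table took 4.62% to 5.45% of the reads in MCF10A libraries and 1.27% to 1.59% in DCIS.COM libraries. Of these keratin reads, the 4 simple keratins made up 13.1% and 13.5% in MCF10A pLOC-empty and 9.54% and 9.42% in MCF10A pLOC-*MALINC1*. In DCIS.COM their share was 38.5% and 37.9% with pLOC-empty and 39.4% and 38.6% with pLOC-*MALINC1*. *KRT81* and *KRT86* together went from 1.85% and 1.84% of keratin reads in DCIS.COM pLOC-empty to 0.00882% and 0.00783% with pLOC-*MALINC1*, and from 11.2% and 11.01% to 7.86% and 8.11% in MCF10A. These shares are not corrected for transcript length.

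The neighbours of *KRT81* and *KRT86* in the cluster were compared by their distance from the start of *KRT81*. *KRT83*, a hair keratin whose start lies 29.9 kb away, had 2.64 and 3.32 CPM in DCIS.COM pLOC-empty and 2 and 1 reads in the pLOC-*MALINC1* libraries. Scaled for library size, the ratio of its 123 reads to these 3 was 65.9 (exact 95% interval 22.0 to 324, for counting error alone), and limma called the change, with an adjusted p of 5.66e-05. In MCF10A its libraries disagreed widely, with 15.7 and 38.0 CPM with pLOC-empty and 73.7 and 12.05 CPM with pLOC-*MALINC1*. *KRT85*, a hair keratin 75.9 kb away that is named here after its values were seen, had 9 reads in the DCIS.COM pLOC-empty libraries together and 1 in the pLOC-*MALINC1* libraries. It was also called lower there, with a read ratio of 14.5 (exact 95% interval 2.01 to 634, for counting error alone). Adding a pseudocount of 0.5 or 1 CPM removed the *KRT85* call, as did fitting each line alone. *KRT7*, the neighbour on the other side, and the genes beyond *KRT85* were not called lower. Their log2 fold changes in DCIS.COM were 0.61 for *KRT7*, 1.53 for the root sheath keratin *KRT75*, -0.09 for *KRT6B*, 0.01 for *KRT6C*, 0.13 for *KRT6A* and 0.38 for *KRT5*. The 4 genes that were called lower, or 3 where the *KRT85* call was lost, lay next to each other among the genes of the table. They also share sequence, with 20 windows of 76 bases common to *KRT83* and *KRT81*. *KRT85* shares 29 with *KRT81* and 29 with *KRT86*. *KRT83* reads were 1.14% and 1.43% of *KRT81* reads in DCIS.COM pLOC-empty. The part of shared reads in the falls of *KRT83* and *KRT85* was not tested. With pLOC-empty the 4 were also called lower in DCIS.COM than in MCF10A, as were *KRT7*, *KRT75*, *KRT6C*, *KRT6A*, *KRT5*, *KRT4* and *KRT78*, with log2 fold changes of -6.62 to -1.37.

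The remaining keratins of the lists moved in few cases. Among the 17 in the table, 2 were called higher and 0 lower in MCF10A, and 3 higher and 2 lower in DCIS.COM. Over all genes, 2.99% were called higher and 2.51% lower in MCF10A, and 1.44% and 3.08% in DCIS.COM. Of the 13 basal and stratified keratins, 2 were called higher in each line, with a median log2 fold change of 0.42 in MCF10A and 0.10 in DCIS.COM. *KRT13*, a keratin of stratified mucosa, rose in DCIS.COM from 2.12 ± 0.13 to 39.7 ± 2.9 CPM (SD, n = 2), and *KRT4*, its type II partner, from 0.733 ± 0.14 to 5.998 ± 0.020 CPM. The limma adjusted p-values were 6.95e-12 and 6.83e-08. *KRT14*, the type I keratin of basal cells, rose in MCF10A from 1452 ± 39 to 2922 ± 45 CPM (limma, adjusted p = 1.19e-09). That call sat at the 2-fold line and was lost under quantile normalization, median centring and scaling without the *RN7SL* genes. *KRT78* in MCF10A and *KRT75* in DCIS.COM, both named after their values were seen, were the remaining rises, at 2.42 and 1.02 CPM in the higher group, and either pseudocount removed the *KRT75* call. *KRT23*, the other simple-type keratin of the table, was not called in either line (19.3 ± 2.0 and 19.9 ± 1.0 CPM in DCIS.COM).

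Proteins that anchor or bind keratin filaments were not called in either line (0 of 14). Their median log2 fold change was 0.12 in MCF10A and 0.32 in DCIS.COM. Of the 6 other intermediate filament genes, 1 was called lower in MCF10A, *SYNM*, with a log2 fold change of -1.98 (SE 0.11). In DCIS.COM 1 was called higher, *NES*, with 1.85 (SE 0.49). Both had under 5 CPM in the higher group and are named after their values were seen. The list's median was -0.41 in MCF10A and 0.24 in DCIS.COM. In MCF10A 2.99% of all genes were called higher and 2.51% lower, and in DCIS.COM 1.44% and 3.08%.

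Of the 20 luminal factors and markers in the table, 1 was called higher and 0 lower in MCF10A, and 2 higher and 2 lower in DCIS.COM, with list medians of 0.07 and 0.25. Among all genes, 2.99% were called higher and 2.51% lower in MCF10A, and 1.44% and 3.08% in DCIS.COM. *GRHL3*, a grainyhead-like factor of epithelial differentiation, was called higher with *MALINC1* in MCF10A as in DCIS.COM, at 1.43 (SE 0.15, limma adjusted p = 5.83e-06) on the log2 scale in MCF10A and 1.52 (SE 0.15, limma adjusted p = 4.35e-06) in DCIS.COM. *CD24*, a surface glycoprotein of luminal cells, rose in DCIS.COM from 83.9 ± 1.4 to 171 ± 18 CPM (limma, adjusted p = 6.49e-08). *TFAP2C*, which encodes the AP-2 gamma factor of the luminal lineage, fell there from 57.7 ± 3.1 to 28.4 ± 1.3 CPM (limma, adjusted p = 6.58e-08). Both calls sat at the 2-fold line, with log2 fold changes of 1.02 for *CD24* and -1.02 for *TFAP2C*. Which alternatives keep them is not given here. *PROM1*, a luminal progenitor marker, fell there from 5.55 ± 1.0 to 0.628 ± 0.077 CPM (limma, adjusted p = 2.63e-06) and had no reads in the MCF10A libraries.

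Of the 9 listed hair follicle genes in the table, regulators and others, 0 were called in MCF10A and 3 were called higher in DCIS.COM. The list medians were 0.00 and 0.68. The share of all genes called higher in DCIS.COM was 1.44%, and the list was chosen with earlier results known. *LEF1*, a Wnt pathway factor active in the hair matrix, rose in DCIS.COM from 3.99 and 3.46 CPM to 8.61 and 8.76 CPM (limma, adjusted p = 0.0058). In MCF10A it had 2 reads in 1 library and none in the other 3. Any link between *LEF1* and the level of *KRT81* was not tested. *PADI3*, an enzyme that citrullinates hair shaft proteins, rose from 35.7 ± 5.8 to 143 ± 6.6 CPM (limma, adjusted p = 2.99e-07). *FOXQ1*, a forkhead factor of hair differentiation, rose from 6.23 ± 0.47 to 14.3 ± 1.0 CPM (limma, adjusted p = 2.06e-07). *HOXC13*, a homeobox factor of hair keratin expression that is named after its values were seen, went from 12.9 ± 0.045 to 24.9 ± 1.3 CPM in DCIS.COM, under 2-fold.

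For each keratin the genes with the most similar pattern were taken by Pearson's r of log2 CPM over the 8 libraries, among 11465 genes with at least 5 CPM in 2 libraries. The libraries fall into 2 lines and 4 groups, so high values of r are common among so many genes, and they are given as a description. *KRT81* was closest to *CCN1*, *PNLIPRP3* and *BIRC3* (each r = 0.997), and *KRT86* to *ANPEP* (0.999), *DTX4* (0.999) and *FHOD3* (0.998). *ANPEP*, which encodes an aminopeptidase of the cell surface, went from 16.05 to 0.115 CPM in DCIS.COM and from 722 to 562 CPM in MCF10A, in group means. *PNLIPRP3*, a lipase-related gene, went from 6.01 to 0.130 CPM in DCIS.COM and from 77.1 to 87.1 CPM in MCF10A. The others fell less in DCIS.COM. *CCN1* went from 15.4 to 7.58 CPM there, *BIRC3* from 42.5 to 12.3, *DTX4* from 35.0 to 19.6 and *FHOD3* from 10.2 to 0.849. Pearson's r does not depend on the size of a change, so a high r does not mean a fall as large as that of *KRT81*. *KRT81* and *KRT86* had r = 0.997 with each other. *KRT8* was closest to *NR4A1* (0.9997), *LRIG1* and *SPARC* (both 0.999), *KRT18* to *UBE2Q1* (0.998), *TVP23B* (0.998) and *PRSS22* (0.997), and *KRT7* to *PIEZO1*, *MYBL2* and *H1-5* (each 0.999). *KRT19* was closest to *S100PBP* (0.995), *EPN1* (0.988) and *LMNB1* (0.982). *KRT80* was closest to a gene listed without a symbol (0.987), *PPP1R13B* (0.984) and *CDIN1* (0.984). Among these, *NR4A1* lies near the cluster itself, on the far side of *KRT80* from *KRT81*.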

How the data were processed

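RNA-seq libraries of 4 groups with 2 replicates each were analysed. According to the study's methods and the submitters' processing notes, 76 nt paired-end reads were aligned to hg19 with Rsubread, counted on UCSC genes with featureCounts and normalized with edgeR. The values the authors deposited are normalized log2 CPM of 13842 genes, which hold a prior count. The aligner's handling of multiply matching reads, the strand setting, the tool versions and the filter on low counts are not given in the sources used here. Whole reads were recovered from the steps of the values (100% within 0.02 of a whole number among the low values) and used for depth, shares and read ratios, with no count model since the unit is a log scale. The 20604377 to 37550457 reads on genes set the precision, and intervals cover counting error alone.

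limma 3.58.1, under R 4.3.3, fitted the log2 CPM of all 13842 genes by lmFit, then eBayes with trend = TRUE, with 1 mean for each of the 4 groups, and p-values were adjusted by the Benjamini-Hochberg method over all genes. The prior had 7.98 degrees of freedom and the residual 4. Calls needed a change of more than 2-fold together with an adjusted p under 0.01. The p-values measure the spread between libraries, which may be technical. Each gene's SE uses a spread shared by the 4 groups. For genes with few reads in a group, such as *KRT81* and *KRT86* in DCIS.COM pLOC-*MALINC1*, it lies below the counting error. The steps were tested on simulated data with 200 changed genes. Gene spans, sequences, windows of 76 bases and motifs came from GRCh37 with GENCODE annotation. CPM per kb used the CPM without the prior count and the length of 1 annotated transcript. Python 3.11.15, numpy 2.4.6, pandas 2.3.3, scipy 1.17.1 and matplotlib 3.10.9 were used.

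The 7 keratins and all gene lists (other keratins, keratin-binding proteins, other intermediate filaments, luminal genes, hair follicle genes and cell type markers) were chosen with earlier results of these data known. The counts and adjusted p-values of list genes are therefore descriptions as well. Named besides the 7 keratins were called genes of the lists in a vector comparison whose higher group reached 5 CPM (up to 5 per list and line), neighbours of *KRT81* and *KRT86*, the 3 genes most like each keratin and *MALINC1*. Exceptions are stated where they occur. Alternatives changed the pseudocount, filter, scaling, model, thresholds and the summing of near-identical genes, added the replicate number as a block and left out each library. Protein sequences were not used here, and some promoter sequences are not reported here.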

Additional observations from a re-analysis of the deposited data

Results flagged for a closer look

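The response to pLOC-*MALINC1* differed between the lines for 4 of the 7 keratins by the limma contrast of the responses (DCIS.COM minus MCF10A, adjusted p below 0.01 and over 2-fold), and these keratins were chosen with such results known. In that contrast 3.98% of all genes were called as more positive and 5.22% as more negative. The difference between the responses was -7.64 on the log2 scale for *KRT81*, which fell from 226 to under 1 CPM in DCIS.COM and had 4308 to 5227 CPM in MCF10A. It was -4.83 for *KRT86*. It was 1.06 for *KRT7*, which was lower with *MALINC1* in 2 of 2 MCF10A libraries and higher in 2 of 2 DCIS.COM libraries. It was 1.01 for *KRT19*, whose call rests on 41 to 123 reads per library and was lost under several alternatives given below. Groups of 2 libraries are too small for a test of single libraries that stand apart.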

How the results depend on the processing

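Of 619 alternative values of the log2 fold changes of the 7 keratins, 518 moved by less than 1 residual SD, 101 moved by more, and 0 reversed a called change. Many of these values could not move. The filter, the fit without a trend, the changed thresholds, the replicate block and the fit of each line alone leave a fold change as it was. So does leaving out a library from a group outside the comparison. The tally is therefore no measure of how firm the values are. The 2 calls in DCIS.COM (*KRT81* and *KRT86*, joined by *KRT7* at the looser thresholds) and the 5 between the lines with pLOC-empty held under each alternative, the replicate block and each left-out library included. In MCF10A the 1 call (*KRT19*) became 0 with a pseudocount of 0.5 or 1 CPM, under quantile normalization and with each line fitted alone, and 2 (*KRT18* and *KRT19*) at an adjusted p below 0.05 and 1.5-fold. It ranged from 0 to 1 over left-out libraries, being lost without MCF10A pLOC-empty replicate 2 or MCF10A pLOC-*MALINC1* replicate 1, and the cause was not tested. For the difference between the responses the 4 calls ranged from 3 to 4 over left-out libraries and became 3 with a pseudocount of 0.5 or 1 CPM, under quantile normalization and without a trend, *KRT19* being the one lost each time. The looser thresholds gave 6, adding *KRT18* and *KRT80*. Between the lines with pLOC-*MALINC1* the 5 calls became 3 with a pseudocount of 0.5 or 1 CPM, 6 with scaling without *RN7SL1* and *RN7SL2* (*KRT18* added), 7 at the looser thresholds and 5 under quantile normalization with *KRT18* in place of *KRT19*. They ranged from 4 to 5 over left-out libraries, *KRT80* being lost without MCF10A pLOC-*MALINC1* replicate 2 or DCIS.COM pLOC-*MALINC1* replicate 1. Other keratins called in MCF10A went from 2 to 1 with a pseudocount of 1 CPM, under quantile normalization, median centring, scaling without *RN7SL1* and *RN7SL2* and without a trend, to 5 at the looser thresholds, and ranged from 0 to 2 over left-out libraries, with 1 (*KRT23*) without MCF10A pLOC-empty replicate 2, 0 without MCF10A pLOC-*MALINC1* replicate 1 and 1 (*KRT14*) without its replicate 2. Those called in DCIS.COM went from 5 to 3 with a pseudocount of 0.5 or 1 CPM (*KRT75* and *KRT85* lost) and to 4 with each line fitted alone (*KRT85* lost). A left-out library leaves a group with 1, which is assumed to vary like the others. Same-numbered replicates did not deviate together (correlations of -0.089 to 0.051), and with the replicate block the calls stayed at 1 in MCF10A and 2 in DCIS.COM. Depth limits *KRT19*, *KRT83*, *KRT85* and, in DCIS.COM pLOC-*MALINC1*, *KRT81* (31 and 29 reads) and *KRT86* (11 and 9 reads).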

Other observations

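*KRT83* differed more between the libraries of one group in MCF10A than any of the 7 keratins did, by 1.27 on the log2 scale between the pLOC-empty libraries and by 2.61 between the pLOC-*MALINC1* libraries, while *KRT81* differed by 0.02 in both groups. The *KRT83* reads there were 454, 857, 2644 and 317, and the *KRT86* share of the *KRT81* and *KRT86* reads in the same libraries was 3.305%, 3.56%, 3.99% and 2.99%, in the same order from lowest to highest. The *KRT83* transcript shares 2 windows of 76 bases with that of *KRT86* and 20 with that of *KRT81*. With 4 libraries this is given as values.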
